A study of Mus musculus with 8 samples.

Results

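Septins are GTP-binding proteins of the cytoskeleton that assemble, several different members at a time, into rods, filaments and rings beneath the plasma membrane. They fall into the SEPT2, SEPT3, SEPT6 and SEPT7 groups, and a rod takes its subunits from different groups, so that members of 1 group can stand in for each other at a given place in the rod. They act in cytokinesis, at the base of cilia and, in the testis, in the annulus, a ring of septins in the sperm tail.

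In the table of this series the septin symbols had been turned into dates, so that septin 14 stood as 14-Sep. The members described here are the 10 septins listed as 2-Sep, 4-Sep, 5-Sep, 6-Sep, 7-Sep, 8-Sep, 9-Sep, 10-Sep, 11-Sep and 14-Sep, out of 23767 genes in the table. They were chosen by symbol, with earlier results of these data known, among them the large difference of septin 14. Their 35 transcripts are all described. The transcript that stands for a gene was selected on the measured level, as the one with the highest average of the 2 group means. RPKM values are read counts divided by transcript length and by library size. All 10 septins reached 1 RPKM in either group, the filter that left 15225 genes for the comparison.

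The series compared whole testes of wild-type mice with testes labelled Dio3KO, 4 samples each, all on the 129/SVJ background at postnatal day 5. The title gives the purpose, to find the genes that thyroid hormone regulates in the neonatal testis. The deiodinase encoded by Dio3 breaks down active thyroid hormone. The labels do not give the altered part of Dio3, nor whether the samples of a group came from separate animals or pools. The values are the authors' group means in RPKM and the coefficient of variation (CV, the SD divided by the mean) within each group. Values of single samples were not used here, so whether 2 groups overlap cannot be said. Read depth per sample is unknown. Unless limma is named, each adjusted p value was taken from the authors' deposited table. The words "rose" and "fell" are kept for a p of that table below 0.05. Since the samples may share litters or preparations, these p values measure the spread between these samples alone.

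Dio3 itself did not check the label. It was listed at 0.52 RPKM (CV 0.20) in wild-type and 2.95 RPKM (CV 0.29) in Dio3KO-labelled testes, so the group is named by its label throughout and every direction below rests on that label. The labels also give an extraction text that names hypothalami. Of 10 markers of hypothalamus and neurons, the highest stood at 1.49 RPKM in wild-type and 0.93 RPKM in Dio3KO-labelled testes, while 6 Sertoli cell markers ran from 12.1 to 797 RPKM and from 13.4 to 1232 RPKM.

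Within the family, coding sequences showed how close the members are. The stretch below is the part of each coding sequence in GENCODE M21 that encodes the P-loop, the motif that grips the phosphates of GTP. It is shown for the SEPT6 group, which holds 5 of the 10 septins and 3 of the 4 that passed the test (septins 6 and 14 higher, septin 11 lower). Capitals mark bases that differ from septin 14.
septin 14: ggagaaactggaattggaaaaaca
septin 10: ggGgaGactggaattggaaaaTca
septin 8: ggCgaaactggGattggCaaGTcC
septin 11: ggTgaGacAggTattggCaaaTcC
septin 6: ggGgaGacAggTTtGggCaaGTcC
Septin 10 differed from septin 14 at 3 of these 24 bases, septin 8 at 6, septin 11 at 7 and septin 6 at 10. Over aligned coding sequence, septin 14 was 72.6% identical to septin 10 and 67.3 to 68.3% identical to the other members of its group. Pairs from different groups were 58.4 to 70.1% identical, with a median of 63.0%. Pairs from the same group were 64.4 to 75.7% identical, with a median of 71.0%, so that the ranges overlap. Septin 14 was 60.4 to 63.5% identical to members of other groups.

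Sequence shared with other genes was small for all septins but septin 5. Of 1734 distinct 36-base words in the annotated septin 14 transcripts, 0 occurred in any other gene's transcripts, and the same held for septins 8, 9 and 10. With other members, septins 2 and 7 each shared 20 words and septins 4 and 5 each shared 6. The length of 36 bases was chosen here, since the read length is not given in the sources used here. Septin 5 is the exception, since 81.4% of its words also occur in the overlapping genes Gm49601 and Gp1bb, and its values are uncertain. Septin 6 shared 2.45% of its words with Gm15008, an overlapping gene on the opposite strand. Septin 7 shared 2.50%, with more words in Gm48272, which overlaps it on the opposite strand, than in any other single gene. Septins 2, 4 and 11 shared 1.69%, 0.43% and 0.46%. Whether reads were counted by strand is not given in the sources used here.

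In Dio3KO-labelled testes 3 of the 10 septins rose (septins 14, 6 and 4), 1 fell (septin 11) and 6 did not pass. Over all 15225 genes tested, 14.0% rose and 15.9% fell. The moderated limma test, rebuilt here from the means and CVs with the spread pooled across genes, called the same 3 septins higher and 2 lower (septins 10 and 11), against 18.6% and 23.2% of all genes. At least 1.5-fold higher were 3 septins and 5.56% of all genes, and 0 septins and 3.68% of all genes were at least that much lower. The median log2 ratio of the septins was -0.03, against -0.05 over all genes. Ratios are on the log2(RPKM + 0.5) scale and so are pulled towards 0 for genes of low level. On it, the central 95% of all genes lay between -0.69 and 0.84.

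**Figure D1:**
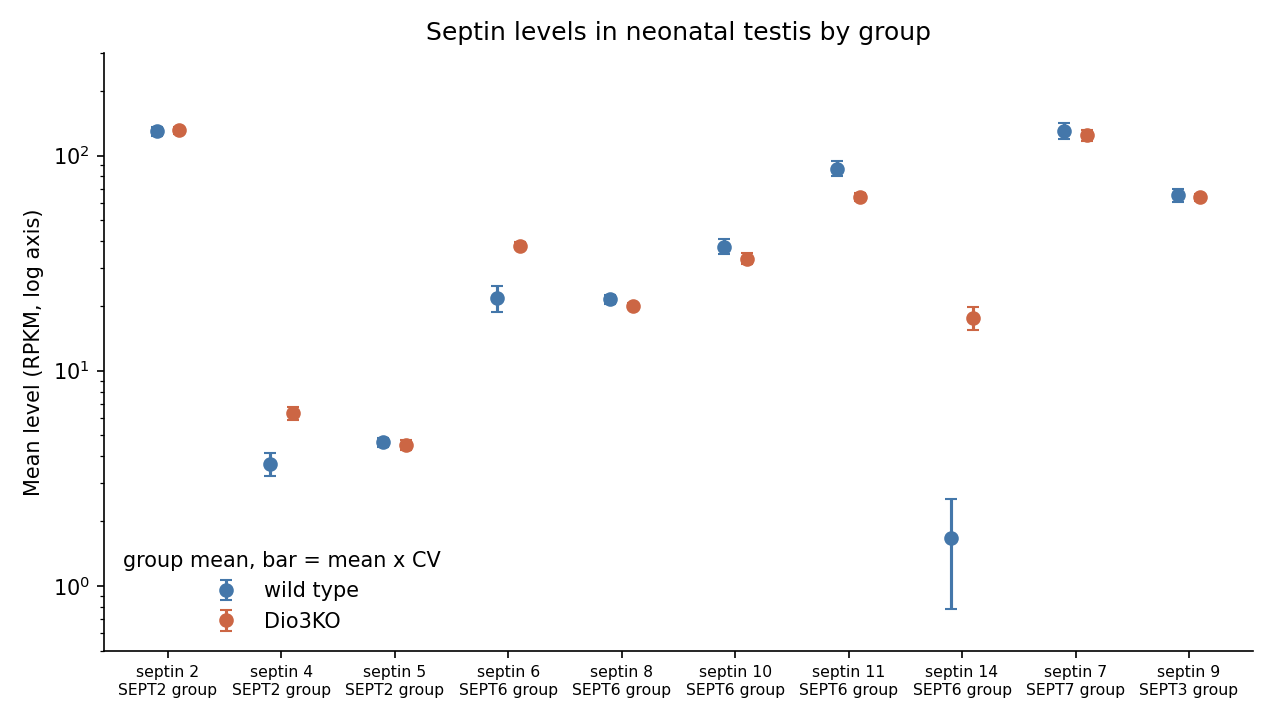
Mean level of each septin in wild-type (blue) and Dio3KO-labelled (orange) testes, in RPKM on a log axis, ordered by homology group. Points are the authors' means of 4 samples and bars are the mean times the CV. Septin 14 stands at 1.66 and 17.6 RPKM, while septins 2, 7 and 9 lie nearly level.

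Septin 14 differed most. This member of the SEPT6 group has been described in testis and brain and binds septin 4. Its single transcript was at 1.66 RPKM (CV 0.53) in wild-type and 17.6 RPKM (CV 0.12) in Dio3KO-labelled testes. It rose 10.6-fold by the ratio of the means, and the authors' deposited table gives an adjusted p of 0.005. The wild-type CV was the widest of all 35 transcripts, and septin 14 went from the lowest septin of the 10 in wild-type testes to a level close to that of septin 8. The log2 ratio was 3.07 ± 0.31 (SE computed from the CVs), the 7th largest rise of the 15225 genes. With a pseudocount of 0.1 RPKM it was 3.33 and with 1 RPKM it was 2.80.

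The gene lies on the minus strand of chromosome 5 (mm10, GENCODE M21, chr5:129683391-129708512), and its longest coding transcript has 9 exons and 430 codons. The annotation places no other gene over it. Its nearest protein-coding neighbours, Zfp11 at 13291 bases on one side and Mrps17 at 6984 bases on the other, were listed at 4.42 and 4.16 RPKM and at 49.8 and 49.99 RPKM in wild-type and Dio3KO-labelled testes, and neither passed (0.312 and 0.75 as adjusted p in the authors' deposited table).

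The promoter of septin 14 is shown because its gene had the largest ratio of the family. The window (RefSeq, GRCm38.p6, chr5:129704935-129705234, minus strand, 5′ to 3′) runs from 250 bases before to 50 bases after the RefSeq start, and the GENCODE gene begins further upstream.
septin 14 promoter: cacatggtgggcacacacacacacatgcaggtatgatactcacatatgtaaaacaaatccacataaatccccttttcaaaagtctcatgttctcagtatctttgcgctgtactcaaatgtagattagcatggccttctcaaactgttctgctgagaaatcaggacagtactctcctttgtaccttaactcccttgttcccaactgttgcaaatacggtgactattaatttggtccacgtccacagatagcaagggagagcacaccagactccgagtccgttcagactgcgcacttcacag
The half-site bound by thyroid hormone receptors, AGGTCA, was searched for on both strands and did not occur in these letters. Only exact matches were sought, so that sites with other letters or outside this window were not tested. It would have been set in capitals. The window is 44.7% G and C. Over all 32851 promoter windows of the same length in RefSeq, 16.3% held AGGTCA. The direct repeat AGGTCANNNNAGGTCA, each match of which also contains the half-site, occurred in 0.015%. Of the 10 septins, 8 had windows, 17 in all, of which 4 held AGGTCA (both windows of septin 2, 1 of septin 4 and 1 of septin 9) and 0 held the direct repeat. Both windows of septin 2 overlap, so that a single site may have been counted in each of them.

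Septin 6, which assembles with septins 2 and 7, was the second member of the SEPT6 group to rise. Its mean was 21.8 RPKM (CV 0.14) in wild-type and 38.1 RPKM (CV 0.04) in Dio3KO-labelled testes, 1.75-fold higher. In the authors' deposited table its adjusted p was 0.0069. All 4 of its transcripts rose, at log2 ratios of 0.73 to 0.79. The lower pair stood at 12.6 RPKM in wild-type and at 21.2 and 21.3 RPKM in Dio3KO-labelled testes. The gene is X-linked (chrX:36911326-36991794, minus strand).

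Septin 11, which forms filaments with septins 7 and 9, moved the other way. It was the most abundant member of the SEPT6 group in both groups of testes, at 87.1 RPKM (CV 0.08) and 64.2 RPKM (CV 0.04). It fell by 26.3%, and the adjusted p was 0.0214 (the authors' deposited table). Of its 6 transcripts, 5 fell, at log2 ratios of -0.49 to -0.44. The sixth, much lower at 12.0 and 9.33 RPKM, had a log2 ratio of -0.35, for which the authors' deposited table gives an adjusted p of 0.0871. Septin 11 lies on the plus strand of the same chromosome as septin 14 (chr5:93093437-93176447).

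The remaining members of the SEPT6 group did not pass. Septin 10, the nearest relative of septin 14 by coding sequence, was at 37.8 RPKM (CV 0.08) and 33.2 RPKM (CV 0.06). Its log2 ratio was -0.18, with a 95% interval from the CVs of -0.36 to -0.01, and the authors' deposited table gives an adjusted p of 0.1054. The limma test did call it lower (adjusted p of 0.0417). Septin 8, a synaptic vesicle partner in neurons, was at 21.5 RPKM (CV 0.05) and 20.1 RPKM (CV 0.03), a log2 ratio of -0.10 with an interval of -0.20 to 0.005. Its 3 transcripts lay between 20.8 and 21.5 RPKM in wild-type testes.

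**Figure D2:**
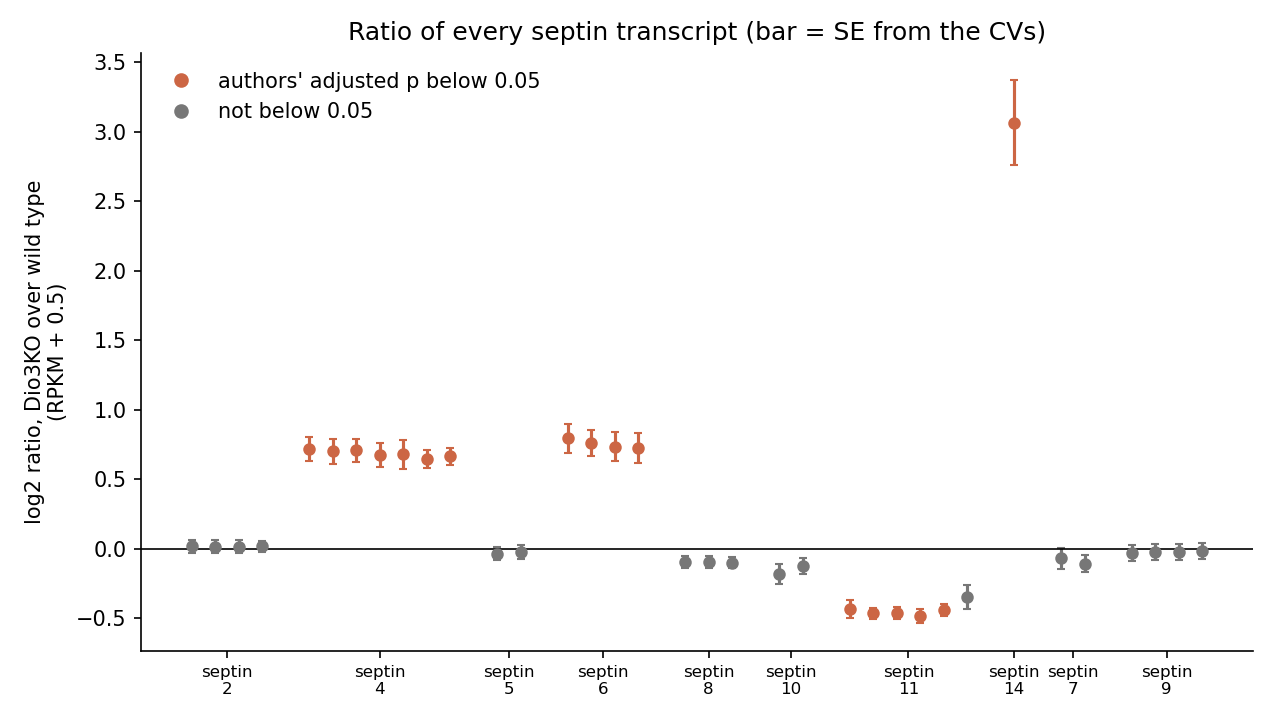
Log2 ratio of Dio3KO-labelled over wild-type testes for each of the 35 septin transcripts, on the log2(RPKM + 0.5) scale, with the SE computed from the CVs as bars. Transcripts of 1 gene stand together, and orange points passed at 0.05 by the authors' deposited table, namely all 7 of septin 4, all 4 of septin 6, 5 of 6 of septin 11 and the 1 of septin 14.

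Transcripts of 1 gene share exons and therefore reads, so that their agreement adds little. Within each gene with more than 1 transcript, the ratios had 1 sign and spanned at most 0.14 on the log2 scale. The levels of single transcripts differed far more for some genes, from 12.0 to 87.1 RPKM for septin 11 and from 13.0 to 131 RPKM for septin 7 in wild-type testes, than for septin 2 (127 to 130 RPKM) or septin 9 (61.9 to 65.3 RPKM).

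Within the SEPT6 group the septins moved in opposite directions. Summed over its 5 members, the level was 169.8 RPKM in wild-type and 173.2 RPKM in Dio3KO-labelled testes as deposited. With both groups rescaled to an equal sum over all transcripts, an alternative added after seeing the data, the Dio3KO-labelled sum was 185.6 RPKM, 9.27% above wild type. As deposited, the members that rose gained 32.3 RPKM, and the summed difference of septins 8, 10 and 11 was -28.9 RPKM. Septin 11 made up 51.3% of the sum in wild-type and 37.1% in Dio3KO-labelled testes. Septin 6 went from 12.8% to 22.0% and septin 14 from 0.98% to 10.2%, while septin 10 went from 22.2% to 19.2% and septin 8 from 12.7% to 11.6%. These sums and shares have no error, because the covariance of the genes between samples is not in the table.

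**Figure D3:**
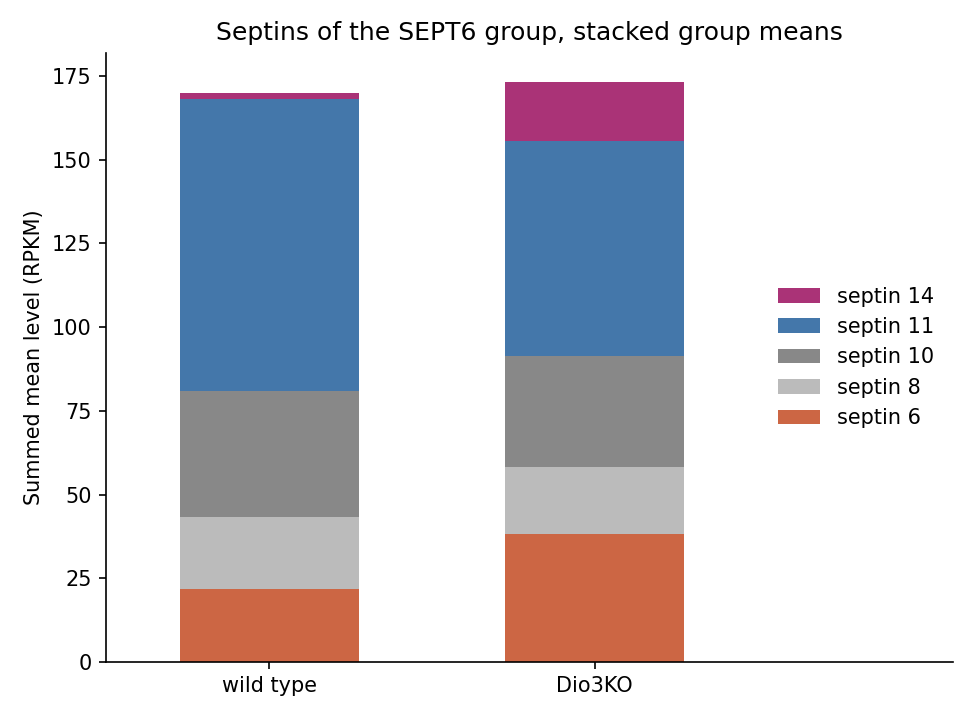
Group means of the 5 septins of the SEPT6 group stacked for wild-type and Dio3KO-labelled testes, in RPKM from 0. The stacks reach 169.8 and 173.2 RPKM, with a smaller part for septin 11 and larger parts for septins 6 and 14 in the Dio3KO-labelled testes.

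Of the 3 SEPT2-group members, septin 4, listed lowest in wild-type testes though the value of septin 5 is uncertain, passed and septins 2 and 5 did not. Septin 4, a component of the sperm annulus of which 1 isoform promotes apoptosis, was at 3.68 RPKM (CV 0.12) in wild-type and 6.37 RPKM (CV 0.07) in Dio3KO-labelled testes. It rose 1.73-fold, and the authors' deposited table gives an adjusted p of 0.0051. All 7 of its transcripts rose, at log2 ratios of 0.65 to 0.72, and their means ran from 0.75 to 3.68 RPKM in wild-type and from 1.48 to 6.37 RPKM in Dio3KO-labelled testes. The gene lies at chr11:87568903-87590539 on the plus strand. Of 6 spermatid markers, none exceeded 1.53 RPKM in either group of testes, and Prm2 was listed at 0 in wild-type testes.

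Septin 2, which acts in cytokinesis and at the ciliary base, was at 129.5 RPKM (CV 0.05) and 131.0 RPKM (CV 0.04) and did not pass. Its log2 ratio was 0.02, with a 95% interval of -0.10 to 0.13. Septin 5, known from exocytosis in neurons and platelets, was at 4.65 and 4.52 RPKM (CV 0.05 in both groups), with an interval of -0.15 to 0.08 on the log2 scale. Septin 2 made up 94.0% of the SEPT2 group in wild-type and 92.3% in Dio3KO-labelled testes.

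The members that stand for the other positions of a rod did not pass. Septin 7, the single member of its group, was at 130.8 RPKM (CV 0.09) and 124.5 RPKM (CV 0.06), a log2 ratio of -0.07 with a 95% interval of -0.26 to 0.12. Septin 9, the SEPT3-group member among these septins and a binder of microtubules and actin, was at 65.3 RPKM (CV 0.07) and 64.0 RPKM (CV 0.04). Its interval was -0.17 to 0.11.

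By level in wild-type testes the order was septins 7, 2, 11, 9, 10, 6, 8, 5, 4 and 14. The place of septin 5, here and below, is uncertain because of the words it shares with overlapping genes. Septins 7 and 2 did not differ beyond their CVs, nor did septins 6 and 8. In Dio3KO-labelled testes septins 2 and 7 again did not differ beyond their CVs, septins 11 and 9 lay within their CVs of each other, septin 6 passed septin 10, septin 14 passed septins 4 and 5, and septin 4 passed septin 5. Summed over all 10 septins, the level was 503.7 RPKM in wild-type and 503.5 RPKM in Dio3KO-labelled testes, without an error for the same reason as above. This depends on the scale, since all transcripts of the table summed to 6.66% less in the Dio3KO-labelled group. With the same rescaling to equal sums, the septins summed to 539.5 RPKM in Dio3KO-labelled testes, 7.10% above wild type. The 4 septins that passed kept their direction under it, whereas the small ratios of septins 5, 7, 8 and 9 turned from below to above 0.

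**Figure D4:**
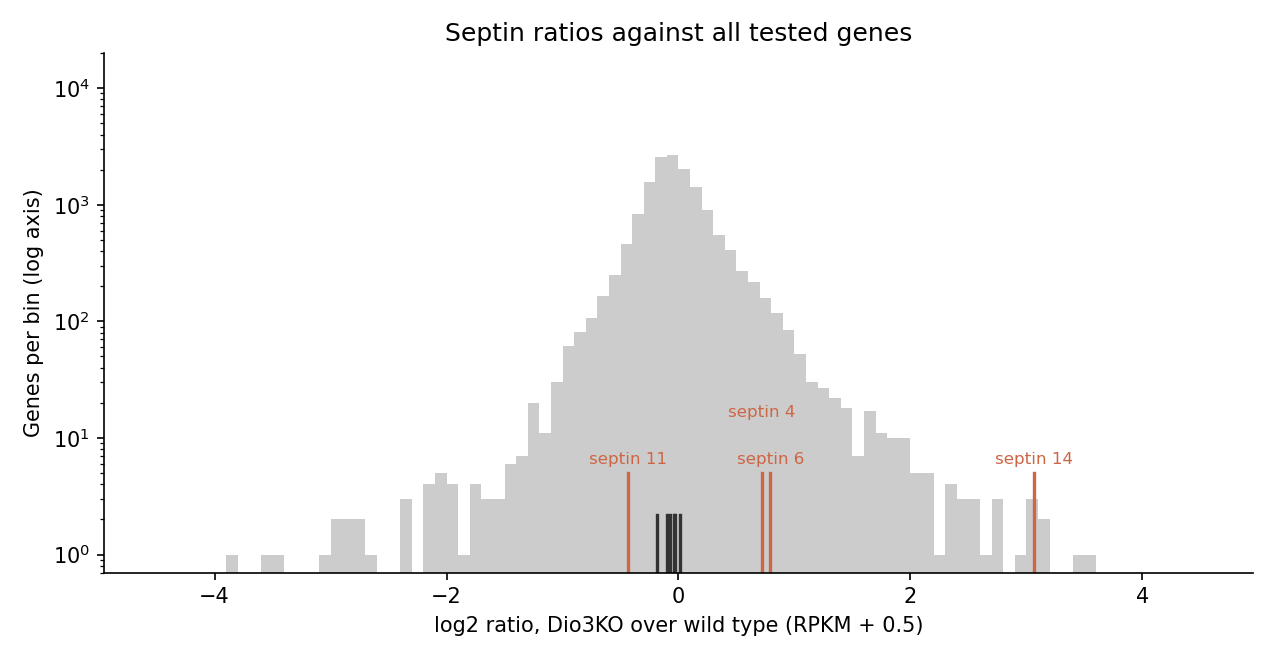
Number of genes (log axis) by log2 ratio of Dio3KO-labelled over wild-type testes, for the 15225 genes tested in grey. Tall orange marks are the septins that passed at 0.05 by the authors' deposited table and short dark marks the other 6, with septin 14 at 3.07 and septin 11 at -0.44.

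Septins work with proteins that bind them. The list of 13 genes for these also held the GTPases Cdc42, Rhoq and Rhoa, and did not mark them apart from direct binders. Of the 13, 5 rose (Cdc42 and Rhoq among them) and 2 fell, leaving 6 that did not pass. Over all genes 14.0% rose and 15.9% fell, so that the share that fell was near that of all genes. Their median log2 ratio was 0.02. The limma test called 4 of the 13 higher and 2 lower, against 18.6% and 23.2% of all genes. Anln, the scaffold that recruits septins to the cytokinetic ring, fell from 26.2 to 18.1 RPKM (an adjusted p of 0.0042 by the authors' deposited table). The GTPase Cdc42 rose from 260.5 to 306.3 RPKM and the related GTPase Rhoq from 17.1 to 24.0 RPKM (0.0082 and 0.0092). Both act through the Borg proteins, Cdc42 effectors that bind septins. Of the 5 Borg genes only Cdc42ep5 passed, at 28.2 RPKM (CV 0.24) in wild-type and 55.3 RPKM (CV 0.13) in Dio3KO-labelled testes, where the authors' deposited table gives an adjusted p of 0.0136. Cdc42ep4 (28.6 and 26.4 RPKM) and Rhoa (123.0 and 115.8 RPKM) did not pass. Named after their values were seen, Rtkn, which codes for rhotekin, and Socs7 rose from 8.07 to 8.78 RPKM and from 11.0 to 12.8 RPKM, and Rtkn2 fell from 6.12 to 3.90 RPKM. The limma test did not call Rtkn (adjusted p of 0.1075).

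Genes of cytokinesis and mitosis, the process in which septins were first described, were measured beside the septins. Of 18 measured genes, 16 fell and 0 rose, and the other 2 did not pass, against 15.9% and 14.0% of all genes. Their median log2 ratio was -0.67, against -0.05 over all genes. The limma test called 17 lower and 0 higher, against 23.2% and 18.6% of all genes. The formin Diaph3 fell from 14.5 to 8.16 RPKM, the cytokinesis regulator Ect2 from 23.4 to 13.4 RPKM, the kinase Aurkb from 36.5 to 20.5 RPKM and the midzone kinesin Kif23 from 34.1 to 19.98 RPKM (from 0.0023 to 0.003 as adjusted p in the authors' deposited table). The non-muscle myosins Myh9 (95.9 and 76.9 RPKM) and Myh10 (35.0 and 29.7 RPKM) did not pass. The limma test did call Myh9 lower (adjusted p of 0.0038), but not Myh10. Among the septins, septin 11 fell, septins 4, 6 and 14 rose and the others, septins 2, 7 and 9 among them, did not pass. The limma test also called septin 10 lower. Whether septin 11 varied with the cytokinesis genes over samples was not tested.

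Values of whole testes do not tell fewer cells of a type from less RNA per cell. Summed levels of cell type markers also differed between the groups, some higher and some lower. The counts of markers that rose or fell stand beside 14.0% and 15.9% of all genes. Macrophage markers, all 4 of them higher and 3 past the threshold, had summed levels of 24.7 and 50.2 RPKM in wild-type and Dio3KO-labelled testes. The 5 Leydig cell markers summed to 387 and 571 RPKM (2 rose, 0 fell), the 4 endothelial markers to 43.5 and 52.3 RPKM (2 rose, 0 fell) and the 6 Sertoli markers to 2049 and 2506 RPKM (2 rose, 2 fell). The 6 germ cell markers summed to 231 and 211 RPKM (0 past the threshold) and the 4 peritubular myoid markers to 485 and 452 RPKM (2 rose, 1 fell). The limma test called 2 germ cell markers lower and 0 higher. It called 4 macrophage, 3 Leydig and 3 endothelial markers higher and 0 of these lower. Its counts for Sertoli and myoid markers were the same as above. Over all genes it called 18.6% higher and 23.2% lower. A sum is weighted to its most abundant markers, so single markers can go against it. The myoid marker Acta2 fell from 401 to 346 RPKM, whereas the means of Des, Myh11 and Cnn1 were higher. Among Sertoli markers Clu and Aard rose, while Amh (284 to 127 RPKM) and Dhh fell. For Leydig cells the means of Cyp11a1, Hsd3b1 and Star were higher, and those of Insl3 and Cyp17a1 lower. Apart from Prm2, no listed marker was at 0 in either group. Their part in the differences of septins 4, 6, 11 and 14 was not tested.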

How the data were processed

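RNA sequencing of 8 testis samples, 4 per group, was deposited as 1 table. Novoalign 2.08, FastQC and mm10 are named without a role in the submitters' processing notes. The counter, annotation, strandedness and test are unknown, being not given in the sources used here. Per the file headers the values the authors deposited are a group's mean RPKM, its CV (the ratio of SD to mean) and an adjusted p-value, per transcript. The members and gene lists were chosen with earlier results of these data known.

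The table held 147417 lines, each of 49139 transcripts 3 times. Symbols were matched to RefSeq and GENCODE (18080 current, 2556 older, 3935 unmatched), and columns to groups by name. Log2 ratios used a pseudocount of 0.5 RPKM, with SEs by the delta method and 95% intervals with 6 degrees of freedom. Across 10672 genes above 5 RPKM, the deposited p-values ranked nearly as an unequal-variance test rebuilt from means and CVs (Spearman's rho 0.9989, across genes, which are not independent replicates). The moderated test used limma 3.58.1 (squeezeVar, trend, robust, Benjamini-Hochberg) in R 4.3.3, with a CV of 0 set to 0.0025, and was tested on simulated data. Adjusted p-values were called below 0.05. Named were all septins and, per list, the 4 genes of smallest p among those that passed and the 2 of highest level among those that did not. Beyond this rule, Rtkn, Socs7 and Rtkn2, after their values were seen, and single cell type markers were also named. Coding identity used global alignment of each gene's longest GENCODE M21 coding sequence. Coordinates were matched by symbol, since the reference lacks the table's transcript identifiers.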

Additional observations from a re-analysis of the deposited data

How the results depend on the processing

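Neither pseudocount, the filters on low values nor taking the transcript with the highest wild-type mean moved a count of calls by more than 1.5 times, and no septin that passed changed sign under any of them, with transcripts summed, or with both groups rescaled to equal sums. The limma test called 2 septins lower (septins 10 and 11) and the same 3 higher, against 18.6% and 23.2% of all genes called higher and lower. By size alone, at least 1.5-fold, 0 septins were lower and 3 higher. In the list of septin-binding proteins and GTPases 1 gene was higher and 1 lower. Of all tested, 846 genes (5.56%) were higher and 560 (3.68%) lower. These smaller counts follow from the limit on size. Rescaling moved the log2 ratios of septins 2, 5, 8, 9 and 11 by more than the SD between samples (pooled over both groups, from the CVs, on the log2 scale), to 0.11, 0.05, 0.0015, 0.07 and -0.34. Counts with transcripts summed were not run, since a sum has no deposited p. No paired analysis was possible because the table holds group means, and for the same reason no sample could be left out. Read depth is unknown and limits the lowest values, such as septin 14 in wild-type testes.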

Other observations

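The table held other date symbols that the listed members leave out. Septin 1, of the SEPT2 group, was at 0.62 RPKM (CV 0.16) in wild-type and 0.71 RPKM (CV 0.19) in Dio3KO-labelled testes. Septin 12, which forms the sperm annulus with septin 4, was at 0.20 RPKM (CV 0.61) and 0.28 RPKM (CV 0.42). Septin 3, a brain septin of the SEPT3 group, was at 1.55 and 1.58 RPKM in the highest of its 5 transcripts. None of these passed (0.4154, 0.4061 and 0.7199 as adjusted p in the authors' deposited table). A row under the older symbol Cdcrel-1, which RefSeq gives to septin 5, was at 4.52 and 4.43 RPKM, close to the septin 5 rows at 4.65 and 4.52 RPKM.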
